A study of Rattus norvegicus with 6 samples.

Results

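Endoplasmic reticulum-associated degradation (ERAD) was followed through 8 genes, Os9, Syvn1, Herpud1, Sel1l, Derl1, Derl2, Edem1 and Vcp, in the jejunum of rats with and without heat and shake stress. All probes whose RefSeq accession belongs to 1 of these genes were taken, without regard to their signal. This gave 8 probes for 6 of the 8 genes, out of 41012 probes and 13837 named genes on the array, and all 8 probes could be tested. Derl2 and Edem1 matched no probe and are not analysed here. Both groups were male Sprague-Dawley rats of 6 weeks. The S3d group was kept at 35°C under a vibration of 0.1 g for 2 h per day on 3 days, whereas the control group stayed at 25°C. Each group has 3 arrays, and each array holds jejunal RNA pooled from 3 rats. The tissue is the whole jejunal wall, so that fewer cells of a type and less RNA per cell cannot be told apart.

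ERAD removes proteins that fail to fold in the endoplasmic reticulum (ER). Lectins such as OS9 recognise trimmed sugar chains on such a protein and pass it to SEL1L, the adaptor of the membrane ubiquitin ligase SYVN1 (also called HRD1). Derlins help to move the chain through the membrane, HERPUD1 helps to assemble the ligase complex, and the ATPase VCP pulls the ubiquitinated chain into the cytosol for the proteasome. In the intestine the pathway is best known in secretory cells with much ER, such as goblet, Paneth and plasma cells.

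ER stress induces several ERAD genes through short promoter elements, so the 250 bases before the start site were read for the 6 member genes that have an entry in the RefSeq promoter table (assembly GRCr8), which holds none for Os9 and Derl1. The motifs searched on both strands were ERSE (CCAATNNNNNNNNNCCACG), ERSE-II (ATTGGNCCACG), the core of the UPRE (TGACGTGG) and a pair of heat shock element units (GAANNTTC). ERSE, ERSE-II and, on the opposite strand, the UPRE core share the letters CCACG. Matches were found in Herpud1 and Vcp. These promoters are shown beside that of Syvn1, which held none, because the probes of these 3 genes moved differently. Syvn1 was thus picked by its differences from among several members without a match. Whether a motif goes with a difference was not tested. Capitals mark the matches, which are ERSE-II in Herpud1 and, in 5′ to 3′ order, the UPRE core and the heat shock element pair in Vcp.
Herpud1, GRCr8 chr19:10614708-10614957, minus strand: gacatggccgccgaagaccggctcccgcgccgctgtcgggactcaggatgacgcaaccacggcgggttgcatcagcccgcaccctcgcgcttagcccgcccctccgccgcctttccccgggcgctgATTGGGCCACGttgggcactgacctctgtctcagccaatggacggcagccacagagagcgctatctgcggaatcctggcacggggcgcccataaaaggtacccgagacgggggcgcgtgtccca
Vcp, GRCr8 chr5:62025388-62025637, minus strand: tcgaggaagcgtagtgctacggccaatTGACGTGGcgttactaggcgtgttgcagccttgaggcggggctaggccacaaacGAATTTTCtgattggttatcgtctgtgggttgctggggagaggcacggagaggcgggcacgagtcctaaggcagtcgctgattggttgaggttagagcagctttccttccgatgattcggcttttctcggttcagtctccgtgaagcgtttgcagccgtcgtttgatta
Syvn1, GRCr8 chr1:212768658-212768907, plus strand: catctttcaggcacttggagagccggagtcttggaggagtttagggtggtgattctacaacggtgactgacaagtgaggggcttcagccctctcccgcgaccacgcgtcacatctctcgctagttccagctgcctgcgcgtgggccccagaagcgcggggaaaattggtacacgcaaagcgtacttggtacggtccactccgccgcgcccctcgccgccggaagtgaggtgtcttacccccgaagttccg
The ERSE-II match of Herpud1 lay from -124 to -114 relative to the start site, and 0.0418% of the 33469 promoters of the table held this motif. The UPRE core of Vcp lay from -223 to -216 (0.52% of promoters) and its heat shock element pair from -169 to -162 (7.23% of promoters). No motif was found in Syvn1, Sel1l, Derl2 or Edem1, and ERSE, which 0.0657% of promoters held, was found in no member.

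The labels of the groups need care before any direction is read. The deposited table of normalized values has a column per sample, and all 6 columns followed the scanner file of an array from the other group (Spearman's rho from 0.99999 to 1) more closely than the scanner file of their own label (0.941 to 0.948). The labels of both sources are thus exchanged against each other, and no sample was reassigned. Which source carries the right labels was not settled here, and every direction given below depends on it. The study reports RT-PCR of some of its genes, Herpud1 among them, with the directions of its own array results. Those measures were not compared with either source here. Values below follow the labels of the scanner files, and those of the table are set beside them by its own labels. Each of the 2 slides carried the 3 arrays of a single group, and 450 days passed between their scans. Slide, scan and group therefore cannot be told apart. The 75th percentile of the signal ran from 414.4 to 430.1 in the control arrays and from 1456 to 1566 in the S3d arrays, and no spot was saturated.

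Relative signals are the processed intensity divided by the 75th percentile of the same array, and a difference is the S3d mean minus the control mean on the log2 scale, by the scanner labels. Groups were compared with limma, and p-values were adjusted by Benjamini-Hochberg over all 31363 probes tested. They measure the spread between pooled samples only. The threshold was an adjusted p of 0.05, which 73.9% of all tested probes and 7 of the 8 member probes passed. For a gene with several probes, the brightest tested one was read. Of the 6 member genes, 4 were lower on the arrays labelled S3d (Os9, Syvn1, Derl1 and Herpud1), 1 was higher (Vcp), and Sel1l was not called. For Os9 and Syvn1 this direction is opposite to the study's. The study gives Herpud1 as lower without naming a probe, which is the direction of the brighter probe here but not of the dimmer one. For every member probe but the brighter Herpud1 probe, the direction is opposite to that of the deposited table. Among all 11485 named genes tested, 37.4% were lower and 36% higher, so that calls in either direction were common. The median difference of the 6 member genes was -0.57, beside 0.0024 over all named genes. It was -0.28 beside 0.018 with quantile normalization, and with normexp background correction, described below, -0.038 beside -0.38. By the table's own labels 3 member genes were higher and 1 was lower in S3d, against 34.6% and 35% of the named genes. The study selected Os9, Syvn1 and Herpud1 on these samples, so their calls are not independent evidence.

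Os9, the lectin that hands glycoproteins to the ligase, had the largest difference of the 8 member probes. Its probe (A_44_P342712) gave relative signals of 0.667, 0.755 and 0.711 on the arrays labelled control and of 0.284, 0.272 and 0.263 on the arrays labelled S3d. The groups did not overlap, as was the case for 78.8% of named genes. The difference was -1.38 ± 0.0736 (SE, n = 3 per group, limma adjusted p = 2.6e-05), which is 2.6-fold lower. It lay at percentile 7.01 of all tested probes. In the deposited table the Os9 values were 7.71 ± 0.0518 in the control columns and 9.16 ± 0.0853 in the S3d columns (log2, SD, n = 3). The table's difference was 1.45 (limma adjusted p = 2.8e-05), of nearly the same size and of the other sign.

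Syvn1 encodes the ubiquitin ligase at the centre of the complex and has 2 probes on the array. The probe with the stronger signal (A_44_P871622) gave relative signals of 17.1, 16.8 and 15.1 on the arrays labelled control against 7.6, 7.24 and 7.25 on the arrays labelled S3d. Its difference was -1.15 ± 0.0739 (SE, n = 3 per group, limma adjusted p = 4.5e-05). The other probe (A_44_P126134) gave 0.21, 0.208 and 0.193 against 0.1, 0.088 and 0.0912, with a difference of -1.13 ± 0.0774 (SE, n = 3 per group, limma adjusted p = 5.5e-05). On both probes every array labelled S3d lay below every array labelled control, and the group means differed 2.22-fold and 2.19-fold. Scaling of the arrays by quantiles drew their differences apart, to -0.85 and -1.34. By its own labels the table gave Syvn1 differences of 0.85 and 1.35.

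Derl1, a derlin of the dislocation complex, gave relative signals of 8.15, 7.87 and 7.37 on the arrays labelled control. On the arrays labelled S3d they were 4.41, 4.21 and 4.57, below every control value. The difference was -0.82 ± 0.0706 (SE, n = 3 per group, limma adjusted p = 0.00013) for its only probe (A_44_P1017841). The table gave 0.63 for Derl1 by its own labels (limma adjusted p = 0.00036).

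**Figure D1:**
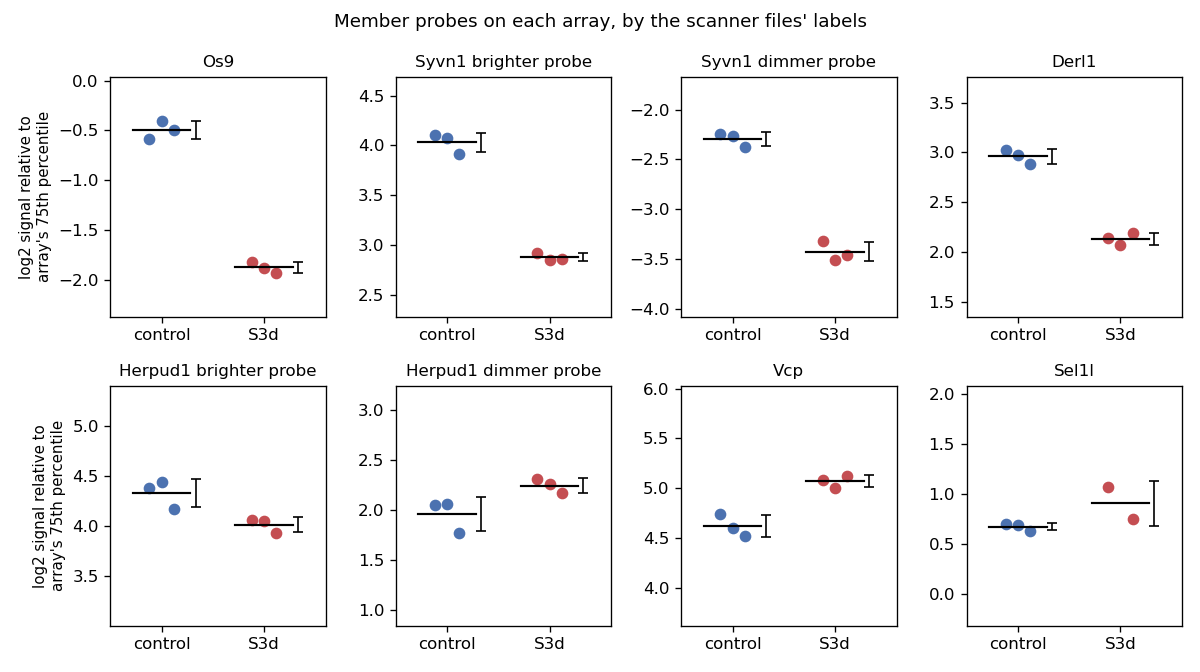
Log2 signal of the 8 member probes relative to the 75th percentile of the array (vertical axis) on the arrays labelled control and S3d. Points are arrays, horizontal lines are group means, bars are ± 1 SD, and Sel1l lacks the array S3d 2, whose spot carried an outlier flag. The S3d points lie below the control points for Os9, both Syvn1 probes, Derl1 and the brighter Herpud1 probe, and above them for the dimmer Herpud1 probe, Vcp and Sel1l.

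Vcp, the ATPase that extracts the ubiquitinated chain, was the only member gene called higher on the arrays labelled S3d. Its probe (A_44_P156433) gave relative signals of 26.8, 24.2 and 23 on the arrays labelled control and of 34, 32.1 and 35 on the arrays labelled S3d, without overlap. The difference was 0.45 ± 0.0814 (SE, n = 3 per group, limma adjusted p = 0.003), or 1.37-fold. It was larger, 0.92, with quantile normalization (limma adjusted p = 0.00012), and the table gave -0.93 by its own labels.

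Sel1l, the adaptor that links lectins to SYVN1, was not called. Its probe (A_44_P517576) gave relative signals of 1.62, 1.61 and 1.55 on the arrays labelled control and of 2.09 and 1.68 on the arrays labelled S3d 1 and 3. The spot on the array S3d 2 carried an outlier flag and was left out of the fit, with an intensity of 9161.7 beside 3047.7 and 2630.9 on the other S3d arrays. The difference was 0.24 ± 0.115 (SE, n = 3 and 2, limma adjusted p = 0.12). With the flagged spot kept it was 0.79 ± 0.465 (limma adjusted p = 0.17). Median centring gave 0.043 (limma adjusted p = 0.75). Leaving out the array S3d 1 or S3d 3, either of which leaves 1 S3d value for this probe, gave 0.078 and 0.40. No spread within the S3d group was measured there.

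Herpud1 encodes an ER membrane protein with a ubiquitin-like domain and is a known target of the ER stress response. The 2 probes of Herpud1 moved in opposite directions. The brighter probe (A_44_P1047924) gave relative signals of 20.9, 21.7 and 18 on the arrays labelled control and of 16.7, 16.6 and 15.2 on the arrays labelled S3d, a difference of -0.32 ± 0.0939 (SE, n = 3 per group, limma adjusted p = 0.022). The dimmer probe (A_44_P137356) gave 4.16, 4.17 and 3.4 against 4.95, 4.81 and 4.49, a difference of 0.29 ± 0.102 (SE, n = 3 per group, limma adjusted p = 0.043). Neither pair of groups overlapped, although the gaps between them were small beside those of Os9 and Syvn1. The mean over both probes differed by -0.016 (limma adjusted p = 0.88), so that by the scanner labels the array gives no single direction for Herpud1. The call of the brighter probe was lost without control 1, control 2 or S3d 3 (limma adjusted p = 0.063, 0.069 and 0.07). Its sign turned with quantile normalization (0.076, limma adjusted p = 0.47), and the table gave -0.08 by its own labels (limma adjusted p = 0.45). The dimmer probe lost its call in 8 of 17 alternatives, among them median centring (0.084, limma adjusted p = 0.49). For this probe the table gave -0.43 (limma adjusted p = 0.0077), so that both Herpud1 probes lie below 0 by the table's own labels.

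The ratio of both probes of a gene on the same array does not depend on how arrays are scaled by a factor. For Herpud1 the log2 ratio of the brighter to the dimmer probe was 2.33, 2.38 and 2.40 in the control arrays and 1.75, 1.79 and 1.76 in the S3d arrays, a change of -0.60 without overlap. Such a split is the most extreme that 3 against 3 arrays can give, and an exact permutation test then gives a two-sided p of 0.1, the smallest it allows. The change was -0.35 with quantile normalization, -0.56 with normexp background correction and 0.35 in the table by its own labels. Correction steps that act on bright and dim spots differently also move such a ratio, as the Syvn1 probes show. The log2 ratio of the dimmer to the brighter Syvn1 probe ran from -6.35 to -6.29 on the arrays labelled control and from -6.36 to -6.25 on those labelled S3d, which overlap. The change in the ratio of the brighter to the dimmer Syvn1 probe was -0.019 there, but 0.49 with quantile normalization, 1.03 with normexp and -0.50 in the table by its own labels, so that the contrast between Syvn1 and Herpud1 holds only where arrays are scaled by a factor.

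**Figure D2:**
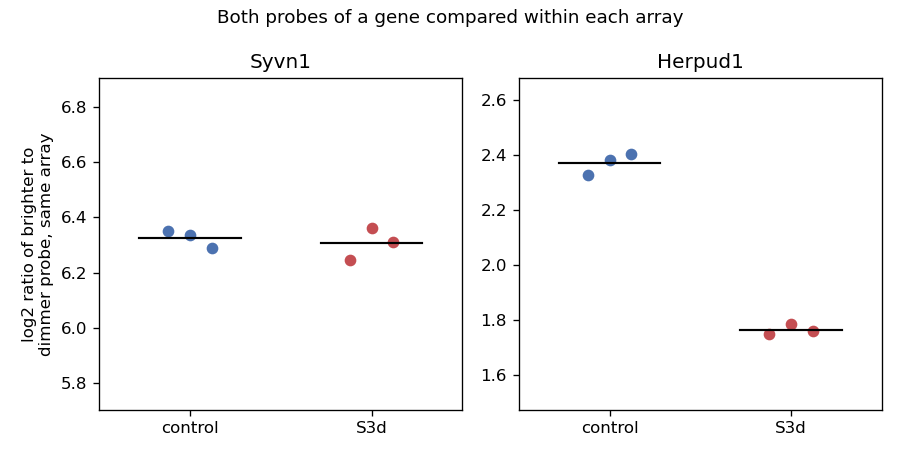
Log2 ratio of the brighter to the dimmer probe of Syvn1 and of Herpud1 on the same array (vertical axis), for the arrays labelled control and S3d. Points are arrays and lines are group means. The groups overlap for Syvn1, whereas for Herpud1 the mean is 2.37 in the control arrays and 1.77 in the S3d arrays, without overlap.

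Ratios between members on the same array restate the differences above in a form that scaling by a factor leaves unchanged. Those with Vcp set the only member gene called higher against members called lower. Their direction follows from those calls and is no further support for them. The log2 ratio of the Vcp to the Os9 probe was 5.33, 5.01 and 5.02 in the control arrays and 6.90, 6.88 and 7.05 in the S3d arrays, a change of 1.83. The ratio of Vcp to the brighter Syvn1 probe changed by 1.60, from 0.59 ± 0.0608 to 2.19 ± 0.0674 (SD, n = 3). The ratio of Derl1 to Vcp moved from -1.66 ± 0.0489 to -2.94 ± 0.00841 (SD, n = 3). These 3 changes were 2.37, 1.77 and -1.56 with quantile normalization and 2.58, 1.67 and -1.39 with normexp. The ratio of Os9 to the brighter Syvn1 probe changed by -0.23, also without overlap, and by -0.59 with quantile normalization and -0.91 with normexp. The lectin, ligase and derlin probes were thus lower relative to the ATPase probe on all 3 arrays labelled S3d than on any array labelled control. By the labels of the table the same contrasts run the other way.

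Quantile normalization of the scanner signals gave the table's differences with the sign turned. Over the 7 member probes other than Sel1l, both differed in size by at most 0.00688. Background correction of the median spot signal with normexp widened the spread between arrays, with a median SD within groups of 0.556 over all tested probes, beside 0.127 in the main setting, and 4.54% of named genes were called. Os9 was the only member called under it (-1.48 ± 0.239 SE, limma adjusted p = 0.028). The Syvn1 probes then gave -0.56 and -1.60, Derl1 gave -0.29, Vcp gave 1.10, and the Herpud1 probes gave 0.22 and 0.78, none of which was called (limma adjusted p from 0.067 to 0.74). The median over all tested probes was itself -0.69 under normexp. Against it Derl1 and the brighter Syvn1 probe lay above the typical probe, at percentiles 63.6 and 54.3 of the differences, whereas in the main setting they lay at 16.9 and 10.2. Os9 and the dimmer Syvn1 probe stayed below it, at percentiles 23.5 and 19.3.

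**Figure D3:**
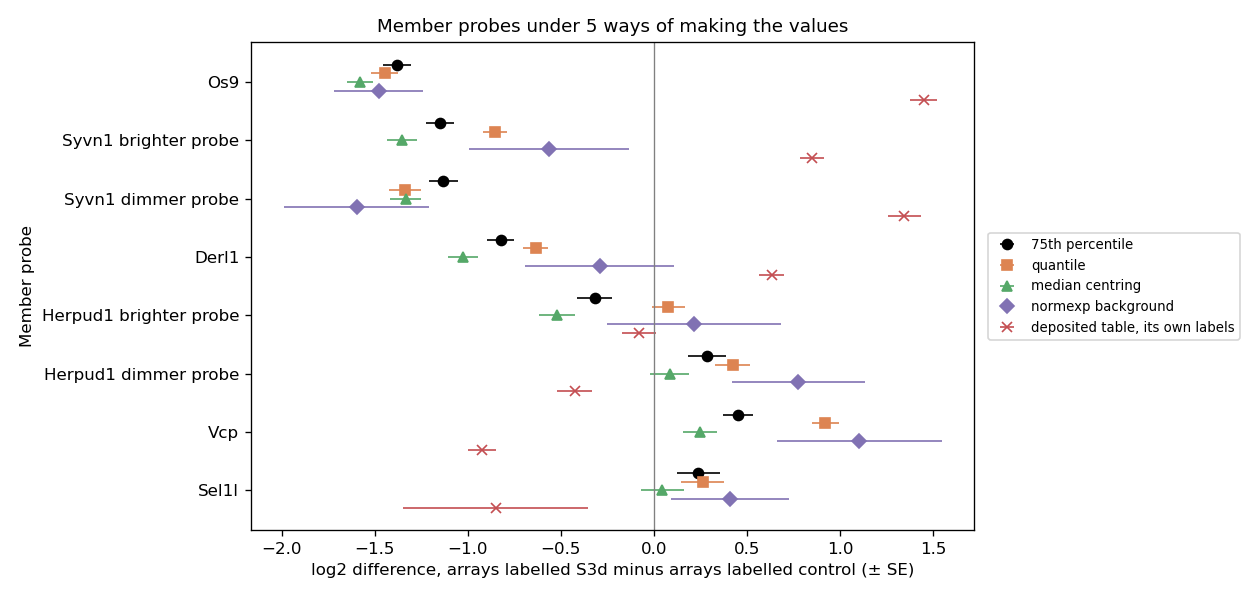
Log2 difference between the arrays labelled S3d and control (horizontal axis, ± SE) of the 8 member probes under 5 ways of making the values, given in the legend. Os9, Syvn1 and Derl1 lie below 0 and Vcp above 0 under the 4 treatments of the scanner signals and on the other side in the table by its own labels. The brighter Herpud1 probe lies on both sides of 0.

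The wider pathway was read from a list of 66 other ERAD genes, of which 57 had a probe and were tested. On the arrays labelled S3d, 27 of the 57 (47.4%) were lower, 15 (26.3%) were higher and 15 were not called, beside 37.4% and 36% of all named genes. Their median difference was -0.15. Quantile normalization gave 25 lower and 22 higher genes, median centring gave 32 and 12, and the table by its own labels gave 22 lower and 25 higher. The balance of the list therefore moved with the scaling.

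By role, genes of membrane dislocation and its adaptors leaned lower, with 9 of 13 called lower and 2 called higher (median -0.51). The largest differences were those of Selenok (-1.51 ± 0.0823 SE), Selenos (-0.90 ± 0.0695 SE) and Aup1 (-0.87 ± 0.0663 SE, limma adjusted p = 2.7e-05, 8.5e-05 and 8.2e-05). The first pair encode selenoproteins that bind derlins and VCP, and AUP1 recruits a ubiquitin-conjugating enzyme to the ligase. Ubiquitin ligases and conjugating enzymes leaned the other way, with 6 of 12 higher and 2 lower (median 0.27). Among them were the ligase Rnf121 (1.04 ± 0.0725 SE) and the conjugating enzymes Ube2g1 (0.98 ± 0.101 SE) and Ube2j2 (0.90 ± 0.0826 SE, limma adjusted p = 5.8e-05, 0.00027 and 0.00017). Syvn1, itself a ligase, was lower on both of its probes. Both leanings kept their sign with quantile normalization (medians -0.45 and 0.49). With normexp the medians were -0.39 and 0.58, beside -0.38 over all named genes, so that the dislocation genes lay close to the median gene. In the table by its own labels the medians were 0.45 and -0.50.

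Of the lectins, mannosidases and redox enzymes of the ER lumen, 3 of 6 were lower and 2 higher (median -0.16). Edem3, a mannosidase that trims sugar chains for OS9, was well above background on 3 of 3 arrays labelled control and on 1 of 3 labelled S3d. It passed the filter through the control arrays alone, so its fitted difference of -3.30 is not a measured fold. Dnajc10, a reductase of the ER lumen, differed by -1.02 ± 0.0927 (SE, limma adjusted p = 0.00016), while its other probe gave 0.60. Uggt1, which senses incompletely folded glycoproteins, differed by 0.89 ± 0.116 (SE, limma adjusted p = 0.00073), and by -0.45 with normexp (limma adjusted p = 0.49). Of the VCP cofactors and the genes of deglycosylation, deubiquitination and cytosolic transfer, 13 of 26 were lower and 5 higher (median -0.16). Yod1, a deubiquitinase that works with VCP, differed by -2.16 ± 0.155 (SE, limma adjusted p = 6.6e-05). Nploc4, the VCP cofactor that recognises ubiquitin chains, differed by -1.43 ± 0.101 (SE, limma adjusted p = 6.3e-05), and Faf2, which brings VCP to the ER membrane, by -1.28 ± 0.0656 (SE, limma adjusted p = 2.3e-05). VCP cofactors went both ways, since Ufd1, the partner of NPLOC4, differed by 0.38 ± 0.0616 (SE, limma adjusted p = 0.002). Faf1 differed by 0.82 ± 0.0641 (SE, limma adjusted p = 8.7e-05), but its other probe gave -0.475, of the other sign. Nsfl1c and Ubxn4 were not called, while their other probes gave 0.55 and 1.15. Ufd1, Faf1, Nsfl1c, Ubxn4 and Erlec1 were chosen after their values were seen.

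**Figure D4:**
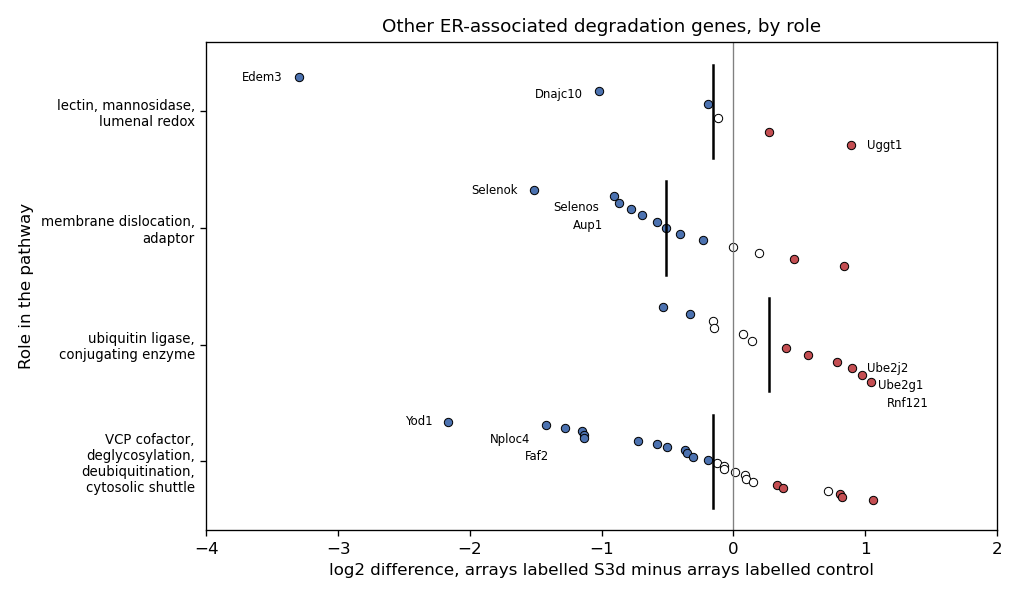
Log2 difference between the arrays labelled S3d and control (horizontal axis) of the 57 other ERAD genes tested, by role (vertical axis). Each point is a gene, filled in blue where called lower, in red where called higher and open where not called, and vertical lines are medians. Blue points prevail in membrane dislocation (9 of 13) and red points among ubiquitin enzymes (6 of 12). Edem3 is drawn as lower, although it passed the filter through the control arrays alone.

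Over the 6 arrays, the genes whose centred log2 profile was nearest to that of Os9, by Euclidean distance, were Adap1 (0.0822), Apoa4 (0.0897) and Gda (0.09). Nearest to the brighter Syvn1 probe were Ndufb3 (0.0399), Cisd1 (0.052) and Gabarap (0.0617), and nearest to the brighter Herpud1 probe were Akap5 (0.102), Dennd5a (0.102) and Srp19 (0.106). In the table, by its own labels, only Adap1 came near its member, with a difference of 1.31 against 1.45 for Os9. Apoa4 gave -0.049 and Gda 0.54. Ndufb3, Cisd1 and Gabarap gave 0.41, 0.52 and 0.42 against 0.85 for Syvn1. Akap5, Dennd5a and Srp19 gave 0.64, 0.22 and 0.15, of the other sign to the -0.08 of Herpud1.

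The summed signals of several cell type marker lists also differed between the groups. The summed relative signal of 7 goblet and Paneth cell markers was 1490 to 1550 on the arrays labelled control and 536 to 553 on those labelled S3d, with 5 of the 7 called lower. That of 5 plasma cell markers was 11.4 to 12.9 and 5.39 to 6.78, with 4 of the 5 called lower, and that of 7 enterocyte markers was 1930 to 2230 and 929 to 988, with 5 lower and 1 higher. The sum of 5 smooth muscle markers was 116 to 141 and 108 to 127 (2 lower, 1 higher), and that of 6 leukocyte markers 6.56 to 6.95 and 4.43 to 4.67 (5 lower, 1 higher). Among all named genes 37.4% were called lower and 36% higher. With quantile normalization the ratio of the S3d to the control sum was 0.725 for goblet and Paneth cells, 0.543 for plasma cells and 0.702 for leukocytes, while it turned to 1.03 for enterocytes and 1.31 for smooth muscle. Normexp called 1 leukocyte marker and 0 of the other 4 lists. Its median differences were -0.446 for goblet and Paneth cells, -0.662 for plasma cells, -0.411 for enterocytes, 0.145 for smooth muscle and -0.693 for leukocytes, beside -0.38 over all named genes. Enterocyte markers such as Fabp2 and Alpi were well above background on all 6 arrays. The part of these cell types in the member differences was not tested.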

How the data were processed

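Jejunal RNA of 3 control and 3 S3d samples was measured on 1-colour Agilent rat arrays. Per the labels, RNA of 3 rats was mixed for each sample and each group had 10 rats; the number of rats in the study's text differs. The authors deposited the scanner output of Agilent Feature Extraction 10.7.3.1, from which the background-corrected processed intensity was used, and a table of log2 values. The program that normalized the table is not given in the sources used here.

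The log2 processed intensity was taken relative to the 75th percentile of each array. Spots that were controls or had an outlier flag were dropped, and a probe's repeated spots were averaged. A probe was tested if either group had it well above background on its 3 arrays, so 9649 of 41012 probes were dropped. Probes were named through RefSeq accessions (assembly GRCr8), which gave 17512 of them a gene symbol. The comparison used lmFit and eBayes of limma 3.58.1 (R 4.3.3) without a covariate, with Benjamini-Hochberg adjustment, after a test on simulated data. The study names a one-way analysis of variance with post hoc tests, and a t-test in a figure legend. The analysis of variance was run as an alternative. Promoter motifs were searched with Python 3.11.15. The number of arrays limits the precision.

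Named genes are the 8 members, up to 3 called genes per role of the wider list with the largest difference, no overlap and the same sign under 75th percentile, median and quantile scaling, the 3 genes nearest in profile to Os9, Syvn1 and Herpud1, and cell type markers. Erlec1, Ufd1, Faf1, Nsfl1c and Ubxn4 were named outside this rule, after their values were seen. Members, lists and tests were chosen with earlier results of these data known. The alternatives were other scalings, normexp (offset 50) on the median spot signal, since no mean signal column was found, other filters, the deposited table, a replicate block, an intensity trend, the mean over probes, a fold change of at least 1.5, and each array left out in turn.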

Additional observations from a re-analysis of the deposited data

How the results depend on the processing

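The differences of Os9, both Syvn1 probes and Derl1 stayed below 0 and that of Vcp above 0 under each alternative run on the scanner files other than no scaling between arrays. Under normexp the median of all tested probes was -0.69, and Derl1 and the brighter Syvn1 probe lay above it. Without scaling, which leaves the brighter S3d arrays as they are (median difference of all tested probes 1.93), the differences were 0.47 for Os9, 0.69 and 0.71 for the brighter and dimmer Syvn1 probe, 1.02 for Derl1 and 1.53 for the brighter Herpud1 probe, with 6 member genes higher and 0 lower (limma, each of the 6 differences above 0) and 54 wider ERAD genes higher and 1 lower. The table by its own labels reversed Os9 (1.45), Syvn1 (0.85 and 1.35), Derl1 (0.63), Vcp (-0.93), Sel1l (-0.85) and the dimmer Herpud1 probe (-0.43), with 3 member genes higher, 1 lower and 25 wider genes higher. The Sel1l reversal was not called (limma adjusted p = 0.17). It rests on the table's control 2 value of 12.34, beside 10.73 and 10.41, and that column followed the array S3d 2 with the flagged spot. The brighter Herpud1 probe reversed with quantile normalization (0.076) and normexp (0.22). Normexp called 1754 of 31363 probes instead of 23183 (73.9%), with 1 member probe, 0 member genes higher (1 at an unadjusted limma p under 0.05), 1 lower, and 1 wider gene higher and 2 lower. A fold change of at least 1.5 left 4 member probes, 0 member genes higher (Vcp, 1.37-fold, fell out), and 9 wider genes higher and 14 lower. Leaving out each array in turn gave 21442 to 22795 called probes, 6 called member probes, 1 to 2 member genes higher (2 without S3d 3, through Sel1l, which then has 1 S3d value, assumed to vary like the other groups) and 3 to 4 lower, and 14 to 15 wider genes higher and 24 to 26 lower. Replicate numbers did not pair the arrays: the deviations of same-numbered arrays correlated at 0.0192, 0.0212 and -0.0491, and 2 of 6 arrays correlated best with their own number. With the number as a block, 22209 probes and 7 member probes were called, with 1 member gene higher and 4 lower. A block for the slide could not be fitted, because no slide held both groups.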
